A study of Mus musculus with 8 samples.

Results

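Expression of 9 genes of epithelial-mesenchymal transition, 5 transcription factors that drive it (Snai1, Snai2, Zeb1, Zeb2 and Twist1) and 4 genes that mark its mesenchymal end (Cdh2, Vim, Fn1 and S100a4), was read in ureteric bud cells of newborn mice with and without Dot1. The members were every non-control array probe whose systematic name is a RefSeq transcript of these genes, which gave 12 probes for 9 genes out of 55681 probes and 20887 genes with a symbol. The samples were cells of C57BL/6 kidneys at postnatal day 0, collected by flow sorting for GFP. The 4 KO samples came from DOT1-null bud, with Dot1 deleted where Hoxb7 is expressed, and the 4 WT samples were wild-type controls. The labels give neither the alleles, nor what drives GFP, nor how many animals went into a sample. Each Agilent array read 1 sample in Cy5 against a common RNA in Cy3, that of WT replicate 3, so a value is a log2 ratio to WT 3, and the array of WT 3 set that RNA against itself. Arrays are named by group and replicate number.

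In epithelial-mesenchymal transition, epithelial cells give up their junctions and polarity and take on the shape and motility of mesenchymal cells. The zinc finger factors of the Snail and ZEB families and the basic helix-loop-helix factor Twist1 bind E-box sequences, and Snail and ZEB proteins repress Cdh1, the gene of E-cadherin. Kidney development runs mainly the other way: the mesenchyme around the ureteric bud turns into nephron epithelium, while the bud itself stays an epithelial tube that branches and forms the collecting ducts. Dot1l, the mouse Dot1 gene, encodes a methyltransferase of histone H3 that acts on transcribed genes.

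No member probe passed the test between KO and WT. Of the 11 member probes that were tested, 0 had a limma adjusted p under 0.05 on all 8 arrays, where 0.00632% of all 31667 tested probes did, which is 2 probes. Unadjusted p-values under 0.05 were found for 1 of 11 members, the Twist1 probe, against 23.8% of all probes. The KO arrays lay apart from the WT arrays for 0 of 11 members, against 11.4% of all probes with values on every array, 3.58% higher and 7.82% lower in KO. The 95% confidence interval of each of the 11 differences stayed within 2-fold of equality in both directions. The widest, of a Cdh2 probe, ran from -0.83 to 0.57 on the log2 scale, and without KO 3 it ran from -1.04 to 0.54, past 2-fold. Without KO 2 and KO 3 both Cdh2 intervals also passed 2-fold, down to -1.14 and -1.28. These limits hold for the background correction used, whose offset of 50 shrinks the ratios of dim probes.

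The arrays limit how firmly this can be said, because the KO samples were not alike. On the first principal component of all log ratios, which held 55.6% of the variance, KO 1, KO 3 and KO 4 lay at 40.8, 27.1 and 54.8, KO 2 at -21.9, and the WT arrays between -28.6 and -20.7. The array labelled KO 2 thus lay with the WT arrays by this measure, which goes against its label. At Hoxb7, a homeobox gene of the ureteric bud, it lay with the other KO arrays instead, with -0.59, -0.53, -0.64 and -0.79 on KO 1 to KO 4, against 0.11, 0.07, 0.04 and 0.05 on WT 1 to WT 4 (difference -0.71, SE 0.082, limma adjusted p = 0.0638). Every KO array lay below every WT array at 7.82% of all probes with values on every array, Hoxb7 among them. The genotype of KO 2 was not tested, and every KO mean over all arrays rests on its label. Cy5 was well above background at 95.2% of the spots of KO 3, at 59.1% to 68.9% on the other KO arrays and at 52.4% to 56.2% on the WT arrays, and 7665 spots of KO 3 were flagged by the scanner software, against 175 to 216 on each other array. On the slide, 1 row held every KO array and the second row every WT array, and the effects of row and genotype cannot be told apart. Without KO 2, 6193 of 28479 probes passed, which is 21.7% (9.8% higher and 11.9% lower in KO), and still 0 of 11 members did, so values without KO 2 are given beside those of all arrays. KO 2 was singled out by the same log ratios that are tested here. Genes that pass without it are therefore a description and not an independent test. The single Dot1l probe averaged 0.18 higher in KO (SE 0.11, limma adjusted p = 0.341). Its position relative to the deleted part is not given, so it does not check the genotype. All 18 ureteric bud and collecting duct markers were well above background on all 8 arrays, and so were all 10 epithelial markers, Cdh1 and Epcam among them.

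**Figure D1:**
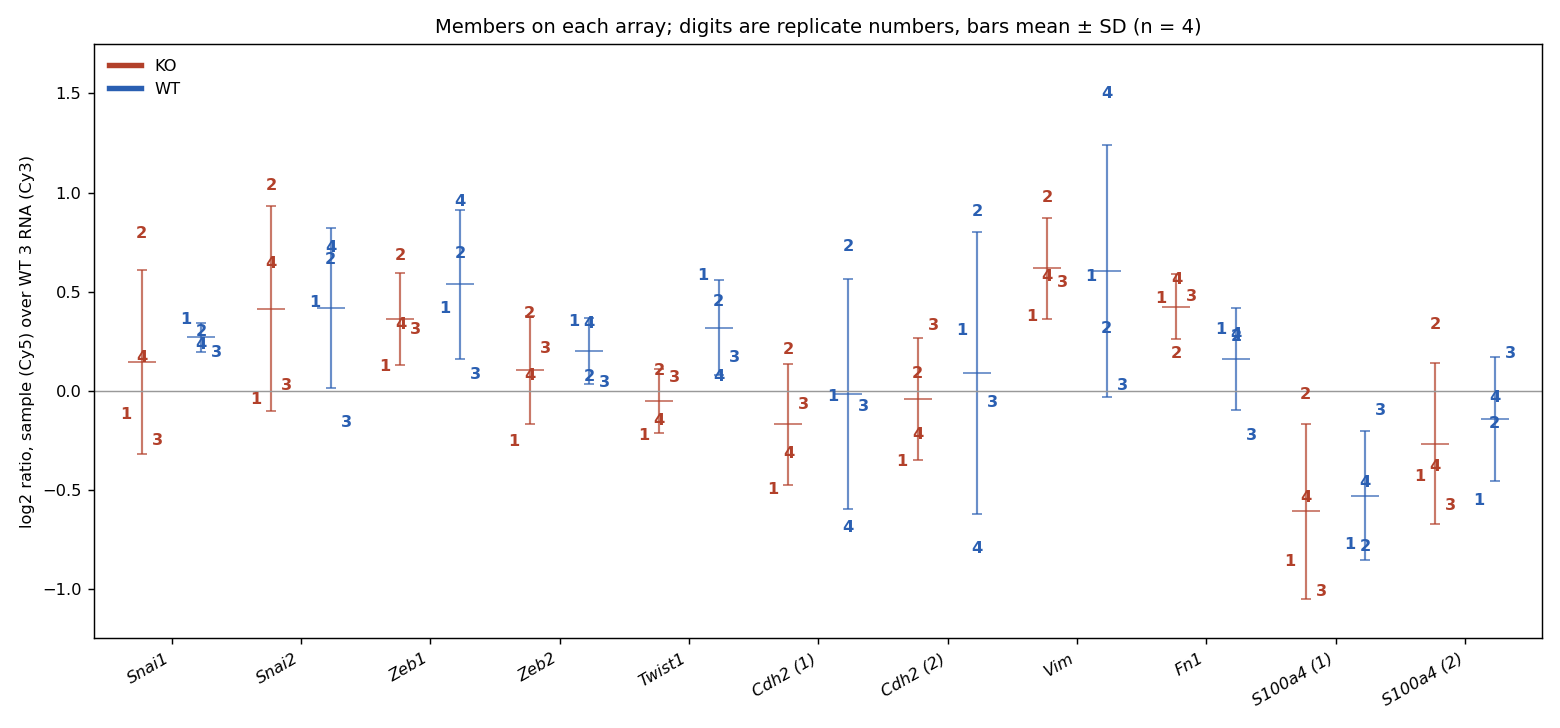
The log2 ratio of each tested member probe is plotted on the y axis for every array, KO in red to the left of WT in blue. Each digit is the replicate number of an array, and the horizontal tick and bar give the mean ± SD of 4 arrays; (1) and (2) are the first and second probes of Cdh2 and S100a4 as described in the text. KO and WT overlap for every probe, and KO 2 is the highest KO array for all probes but the second of Cdh2 and that of Fn1.

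Among the regulators, the Snail genes come first. Snai1 (probe A_51_P165087, NM_011427, chromosome 2) encodes Snail, a repressor of Cdh1. Snai1 had log2 ratios of -0.12, 0.79, -0.25 and 0.17 on KO 1 to KO 4, against 0.36, 0.30, 0.19 and 0.23 on WT 1 to WT 4. KO 1, KO 3 and KO 4 thus lay below every WT array and KO 2 above every WT array, while the WT arrays were close together. The means were 0.15 ± 0.46 in KO and 0.27 ± 0.07 in WT (SD, n = 4 each). The difference was -0.12 (SE 0.20, 95% interval -0.57 to 0.32, limma adjusted p = 0.737). Without KO 2 it was -0.34 (SE 0.11), a larger difference that still missed the threshold, with a limma adjusted p of 0.0607. Snai1 was dim, with Cy5 97.5 to 316 over background in KO and 125 to 187 in WT. Its Cy3 reference was 13 to 46 over background, below the offset of 50, which shrinks its ratios and their spread. On all arrays its difference was -0.25 with no offset, -0.32 in the scanner software's log ratio and -0.57 with Cy5 alone. None of these passed, and with Cy5 alone the median of all probes was -0.18.

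Snai2 (A_51_P305547, NM_011415, chromosome 16) encodes Slug, the second Snail repressor. Snai2 had -0.05, 1.03, 0.03 and 0.64 on KO 1 to KO 4, against 0.44, 0.66, -0.16 and 0.72 on WT 1 to WT 4. Both groups spread over about the same range, with KO 2 highest and WT 3 lowest. The difference was -0.0030 (SE 0.27, interval -0.60 to 0.60, limma adjusted p = 0.997), and -0.21 (SE 0.24) without KO 2. The near-equal means come with an interval of 0.659-fold to 1.51-fold.

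Zeb1 (A_52_P546635, NM_011546, chromosome 18) and Zeb2 encode the ZEB repressors, which also act with TGF-beta signalling through SMAD proteins. Zeb1 had 0.12, 0.68, 0.31 and 0.33 on KO 1 to KO 4, against 0.41, 0.69, 0.08 and 0.96 on WT 1 to WT 4. All KO values lay inside the WT range. The difference was -0.17 (SE 0.19, interval -0.59 to 0.25, limma adjusted p = 0.598), and -0.28 (SE 0.19) without KO 2.

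Zeb2 (NM_015753, chromosome 2) had 2 probes, of which only A_52_P596008 passed the filter on dim signals. That Zeb2 probe had -0.26, 0.39, 0.21 and 0.07 on KO 1 to KO 4, against 0.35, 0.07, 0.04 and 0.34 on WT 1 to WT 4. One KO array lay below and one above the WT range. The difference was -0.09 (SE 0.14, interval -0.42 to 0.23, limma adjusted p = 0.723), and -0.19 (SE 0.14) without KO 2. This probe was dim as well, with Cy5 109 to 271.5 over background in KO and 140 to 232 in WT. Its Cy3 reference was 20.5 to 37.5 over background. On all arrays its difference was -0.18 with no offset, -0.23 in the scanner software's log ratio and -0.70 with Cy5 alone, none past the threshold. The other Zeb2 probe, A_52_P526372, was well above background on KO 2 and KO 3 and on 0 of 4 WT arrays. Its spot on KO 3 was flagged and left out, with a Cy5 signal of 1136.5 over background there, against 3.5 to 51.5 on the other 7 arrays. It had -0.15, 0.17 and 0.02 on KO 1, KO 2 and KO 4, against 0.14, 0.15, 0.32 and -0.09 on WT 1 to WT 4, and with no filter its difference was -0.12 (SE 0.11, limma adjusted p = 0.681). Over the 7 arrays they share, both Zeb2 probes differed by up to 0.43, which is more than the difference between the groups at either with the offset of 50.

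Twist1 (A_52_P20906, NM_011658, chromosome 12), the basic helix-loop-helix regulator, had the largest difference among the members. Twist1 had -0.22, 0.10, 0.07 and -0.15 on KO 1 to KO 4, against 0.58, 0.45, 0.17 and 0.07 on WT 1 to WT 4. KO 1, KO 3 and KO 4 lay below every WT array and KO 2 lay between WT 4 and WT 3. Means were -0.05 ± 0.16 in KO and 0.32 ± 0.24 in WT (SD, n = 4 each). The difference of -0.37 (SE 0.13, interval -0.67 to -0.074) is a KO level 0.774 times that of WT, and it did not pass the test (limma adjusted p = 0.147). Without KO 2 it was -0.42 (SE 0.14, limma adjusted p = 0.0614), and without KO 2 and KO 3 it was -0.51 (SE 0.15), with a limma adjusted p of 0.0449, beside 23.5% of all probes past the threshold on those arrays, 13.2% higher and 10.3% lower. Twist1 was dim, with Cy5 60 to 395 over background in KO and 85 to 225 in WT. Its difference was -0.85 with no offset in the background correction and -0.86 in the scanner software's own log ratio, both short of the threshold.

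The promoters of Snai1 and Twist1 are printed because these regulators stood lowest in KO once KO 2 was left out, and because Snail proteins bind the E-box CACCTG. The windows run from 250 bases before to 50 after the annotated start, from RefSeq on GRCm38.p6, plus strand for both genes, at chr2:167537945-167538244 for Snai1 and at chr12:33957421-33957720 for Twist1. Capitals mark a match to CACCTG, and the opposite strand was searched as CAGGTG.
Snai1: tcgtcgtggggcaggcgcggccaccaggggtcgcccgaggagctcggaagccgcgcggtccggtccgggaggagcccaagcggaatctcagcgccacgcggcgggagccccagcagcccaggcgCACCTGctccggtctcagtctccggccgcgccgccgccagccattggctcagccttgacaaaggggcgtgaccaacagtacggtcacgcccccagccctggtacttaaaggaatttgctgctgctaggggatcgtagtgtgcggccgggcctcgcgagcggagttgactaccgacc
Twist1: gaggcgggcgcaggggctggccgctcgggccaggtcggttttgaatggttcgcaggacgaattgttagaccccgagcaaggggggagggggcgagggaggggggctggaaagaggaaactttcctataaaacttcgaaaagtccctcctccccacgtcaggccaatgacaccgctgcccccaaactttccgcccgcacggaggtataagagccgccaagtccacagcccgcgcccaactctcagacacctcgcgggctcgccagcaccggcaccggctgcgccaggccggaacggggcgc
The Snai1 window holds 1 match, which starts at its base 125, and the Twist1 window holds none of these letters on either strand. Either form occurs in 20.2% of the 32851 promoter windows of that table. Windows were at hand for 5 members, and the other windows printed nowhere here, for Zeb2, Vim and S100a4, held no match. In human cells SNAIL1 is known to bind an E-box in its own promoter. A match in the letters shows no binding in these samples.

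Among the targets, both cadherin and filament genes gave wide intervals. Cdh2 (NM_007664, chromosome 18) encodes N-cadherin, the adhesion molecule that replaces E-cadherin in many transitions and that early nephron epithelium also makes. At its first probe, A_55_P2000133, Cdh2 had -0.50, 0.21, -0.07 and -0.32 on KO 1 to KO 4, against -0.03, 0.73, -0.08 and -0.69 on WT 1 to WT 4. At the second, A_55_P2029711, it had -0.36, 0.09, 0.33 and -0.22 in the same KO order, against 0.30, 0.91, -0.06 and -0.80 in WT. Both probes put WT 2 highest and WT 4 lowest, so that the WT arrays span the KO arrays entirely, and they differ from each other by at most 0.40 on any array. The differences were -0.15 (SE 0.27, interval -0.75 to 0.45, limma adjusted p = 0.759) and -0.13 (SE 0.31, interval -0.83 to 0.57, limma adjusted p = 0.83). Without KO 2 they were -0.28 and -0.17.

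Vim (A_51_P392687, NM_011701, chromosome 2) encodes vimentin, the intermediate filament of mesenchymal cells. Vim had 0.37, 0.98, 0.55 and 0.58 on KO 1 to KO 4, against 0.58, 0.31, 0.03 and 1.499 on WT 1 to WT 4. WT 4 was the highest array and WT 3 the lowest, with all KO values between them. Means were 0.62 ± 0.26 in KO and 0.60 ± 0.64 in WT (SD, n = 4 each), and the difference was 0.01 (SE 0.28, interval -0.61 to 0.64, limma adjusted p = 0.983). It was -0.11 (SE 0.29) without KO 2 and 0.31 without WT 4, and neither passed.

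Fn1 (A_55_P2130178, NM_010233, chromosome 1) encodes fibronectin, a matrix protein that mesenchymal cells lay down and migrate on. Fn1 had 0.47, 0.19, 0.48 and 0.56 on KO 1 to KO 4, against 0.31, 0.27, -0.23 and 0.28 on WT 1 to WT 4. KO 1, KO 3 and KO 4 lay above every WT array and KO 2 below 3 of the WT arrays, the opposite side from Snai1 and Twist1. Means were 0.42 ± 0.16 in KO and 0.16 ± 0.26 in WT (SD, n = 4 each). The difference was 0.26 (SE 0.14, interval -0.047 to 0.58), a KO level 1.201 times that of WT, and it did not pass (limma adjusted p = 0.276). Without KO 2 it was 0.34 (SE 0.14, limma adjusted p = 0.109), and without WT 3 it was 0.13 (limma adjusted p = 0.509). With median centring in place of loess it was -0.24, beside a median of -0.28 over all probes in that setting, relative to which Fn1 stood at 0.04.

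S100a4 (NM_011311, chromosome 3) encodes the calcium-binding protein also called fibroblast-specific protein, which leukocytes make too. At probe A_55_P1983448, S100a4 had -0.87, -0.02, -1.02 and -0.54 on KO 1 to KO 4, against -0.78, -0.79, -0.10 and -0.46 on WT 1 to WT 4. At probe A_55_P1983450 it had -0.44, 0.33, -0.58 and -0.38 in KO, against -0.56, -0.17, 0.18 and -0.04 in WT. KO 2 was the highest KO array and WT 3 the highest WT array at both. The differences were -0.08 (SE 0.23, interval -0.59 to 0.43, limma adjusted p = 0.86) and -0.12 (SE 0.21, interval -0.60 to 0.36, limma adjusted p = 0.756). Without KO 2 they were -0.28 and -0.32, with limma adjusted p-values of 0.321 and 0.186.

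**Figure D2:**
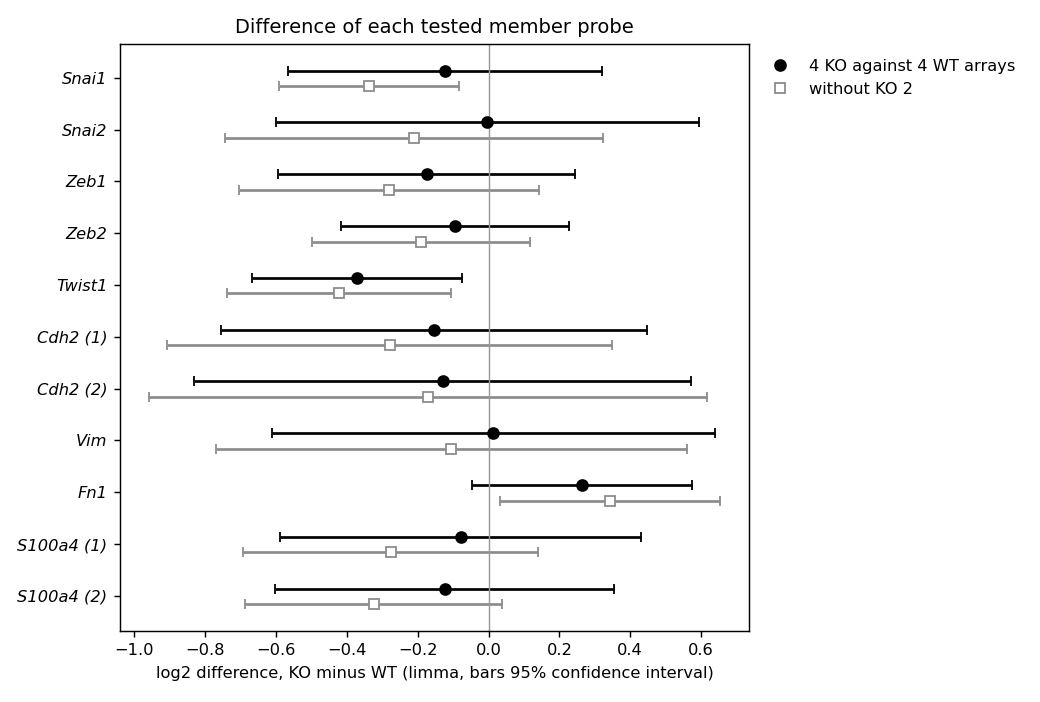
The x axis gives the log2 difference, KO minus WT, of each tested member probe with its 95% confidence interval, from all arrays (black circles) and without KO 2 (open grey squares); (1) and (2) are the first and second probes of Cdh2 and S100a4. Every square lies further left than its circle except that of Fn1, and the intervals from all arrays include 0 except that of Twist1, whose adjusted p is 0.147.

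As a group, 9 of 11 member probes had differences below 0, with a median of -0.12, beside 54.4% below 0 and a median of -0.02 over all tested probes. Without KO 2, 10 of 11 lay below 0 with a median of -0.28, beside 55.0% and -0.03 over all probes. Fn1 lay above 0 in both, and Vim only on all arrays. Cdh2 and S100a4 count here with 2 probes each. By gene, at the brightest probe, 7 of 9 lay below 0 with a median of -0.09, beside 57.1% and -0.04 over all genes tested. Without KO 2 it was 8 of 9 with a median of -0.21, beside a median of -0.05 over all genes. The direction of single members was not firm, since leaving out 1 array turned the sign for Snai1, Snai2, Zeb2, Vim, both Cdh2 probes and 1 S100a4 probe.

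The members also varied more between samples of one genotype than most genes did. Their SD over the WT arrays had a median of 0.33, against 0.11 over all probes, and 10 of 11 lay above that median. Over the KO arrays the medians were 0.31 for members and 0.18 for all probes, with 9 of 11 members above. Where WT 3 RNA was hybridised with itself, no member was further than 0.23 from 0, with a median distance of 0.10, against a median of 0.15 over all probes. That array reads 1 RNA in both colours, so its distances hold no difference between samples.

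Markers of cells other than ureteric bud varied between the same arrays. Stroma and smooth muscle genes had median log2 ratios of -0.09, 1.10, 0.24 and 0.47 on KO 1 to KO 4, against 0.87, 0.80, 0.08 and 0.71 on WT 1 to WT 4. KO 2 was the highest KO array and KO 1 the lowest, and WT 3 was the lowest WT array, as at Snai2 and Zeb1. The highest WT array differed, being WT 1 for the stroma list and WT 4 at Snai2 and Zeb1. The 14 tested genes of that list, of 15, summed to Cy5 levels of 7270 to 23882 in KO and 9071 to 23171 in WT, not scaled between arrays. Of these genes 13 were well above background on every array. Col3a1, Col1a1 and Col1a2, the fibrillar collagens of stroma, had differences of -0.44 (SE 0.44), -0.57 (SE 0.39) and -0.58 (SE 0.44), none past the threshold. Acta2, the smooth muscle actin gene, differed by -0.49 (SE 0.30, limma adjusted p = 0.342) and by -0.77 without KO 2, where it passed (limma adjusted p = 0.0451). Over the list, 13 of 14 differences lay below 0 with a median of -0.35, and 13 of 13 without KO 2 with a median of -0.59.

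Endothelial genes followed another order, with medians of 0.32, 0.52, 0.45 and 0.31 on KO 1 to KO 4, against -0.16, -0.20, 0.16 and 1.09 on WT 1 to WT 4. WT 4, the highest array for Vim and Zeb1, was the highest here too. The lowest WT array differed, being WT 2 for the endothelial list and WT 3 for Vim and Zeb1. All 7 endothelial genes were tested and well above background on all arrays, with summed Cy5 levels of 7315 to 11423 in KO and 4595 to 13197 in WT. The receptor genes Flt1 and Kdr differed by 0.49 (SE 0.33) and 0.26 (SE 0.26), Eng by -0.31 (SE 0.34) and Cdh5, the gene of VE-cadherin, by 0.07 (SE 0.29). Nephron progenitor genes had medians of -0.02, 0.57, 0.15 and 0.36 on KO 1 to KO 4, against 0.65, 0.89, 0.10 and 0.37 on WT 1 to WT 4. WT 2 led that list, as it led both Cdh2 probes, while the lowest WT array was WT 4 at both Cdh2 probes and WT 3 in the progenitor list. All 9 of these genes were above background on every array, with summed levels of 13427 to 21388 in KO and 14277 to 24761 in WT. Its brightest genes went both ways: the progenitor factors Six2 and Cited1 differed by -0.78 (SE 0.57) and -0.82 (SE 0.44), the Notch ligand gene Jag1 by 0.13 (SE 0.12) and Eya1 by 1.11 (SE 0.34, limma adjusted p = 0.12). Without KO 2 the Eya1 difference was 1.47 and passed (limma adjusted p = 0.00265).

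Macrophage and leukocyte genes, whose cells make S100a4, had medians of -0.32, -0.24, -0.28 and -0.14 on KO 1 to KO 4. On WT 1 to WT 4 the medians were 0.41, -0.20, 0.07 and 0.03. By these medians KO 4 and WT 1 were highest in their groups, while both S100a4 probes had KO 2 and WT 3 highest. By the list mean, KO 2 (-0.0027) and WT 1 (0.48) were highest in their groups. Among the brightest genes, C1qa, C1qb and Coro1a had KO 2 highest of the KO arrays, at 0.41, 0.94 and -0.09. Csf1r had KO 3 highest, at 0.0071, and C1qb had no value on KO 3. Of this list 7 of 8 genes were tested, with summed levels of 2897 to 3841 in KO and 2422 to 5172 in WT. Differences lay below 0 for 7 of 7 with a median of -0.23, beside 57.1% below 0 and a median of -0.04 over all genes tested. Without KO 2, 0 of the 5 tested then were higher and 2 were lower, beside 21.7% of all probes past the threshold. Coro1a, a leukocyte coronin, differed by -0.56 (SE 0.12, limma adjusted p = 0.101) and by -0.61 without KO 2, where it passed (limma adjusted p = 0.00997), while Csf1r differed by -0.01 (SE 0.22), C1qa by -0.27 (SE 0.25) and C1qb by -0.03 (SE 0.35). The 5 podocyte genes had medians of -0.22, 0.29, 0.39 and 0.11 on KO 1 to KO 4. On WT 1 to WT 4 the medians were 0.23, 0.86, -0.13 and 0.39. WT 2 thus led this list too, as it led both Cdh2 probes, while WT 3 was the lowest WT array. The podocyte genes had summed levels of 1304 to 4221 in KO and 1831 to 5175 in WT. Of these, Wt1 differed by -0.37 (SE 0.46), Synpo by -0.16 (SE 0.11) and Podxl by 0.38 (SE 0.15). The 5 proximal tubule genes had medians of -0.92, 0.19, 1.24 and 0.68 on KO 1 to KO 4. On WT 1 to WT 4 the medians were 1.33, 0.46, 0.06 and -0.13. KO 1 and WT 4 were the lowest of their groups, as at both Cdh2 probes. KO 3 was the highest KO array, as at the second Cdh2 probe only, and WT 1 rather than WT 2 the highest WT array. The proximal tubule genes had summed levels of 3764 to 23414 in KO and 6145 to 18073 in WT. Of these, Lrp2 differed by 0.27 (SE 0.46), Slc34a1 by -0.39 (SE 0.63), Cubn by -0.13 (SE 0.45) and Hnf4a by -0.06 (SE 0.40). The part of these cells in the members' values was not tested, and in bulk samples fewer cells of a type and less RNA per cell cannot be told apart. None of the summed levels was scaled between arrays. KO 3 had a median Cy5 of 636, against 93.5 to 137 on the other arrays. It gave the highest KO sum for the endothelial, leukocyte, podocyte and proximal tubule lists, and KO 2 that for the stroma and progenitor lists.

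Ureteric bud markers had list medians of -0.18 to 0.27 in KO and 0.06 to 0.18 in WT, and epithelial markers -0.21 to 0.05 in KO and -0.02 to 0.25 in WT. Single ureteric bud markers lay far to both sides of these medians, as Krt18 (described with the epithelial genes) and Hoxb7 did. KO and WT did not overlap for 5 of 18, beside 11.0% of all genes tested by their brightest probe. Without KO 2, 1 of the 17 tested then was higher and 5 were lower at the threshold, where 21.7% of all probes passed. Epcam, an epithelial adhesion gene, differed by -0.13 (SE 0.11).

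**Figure D3:**
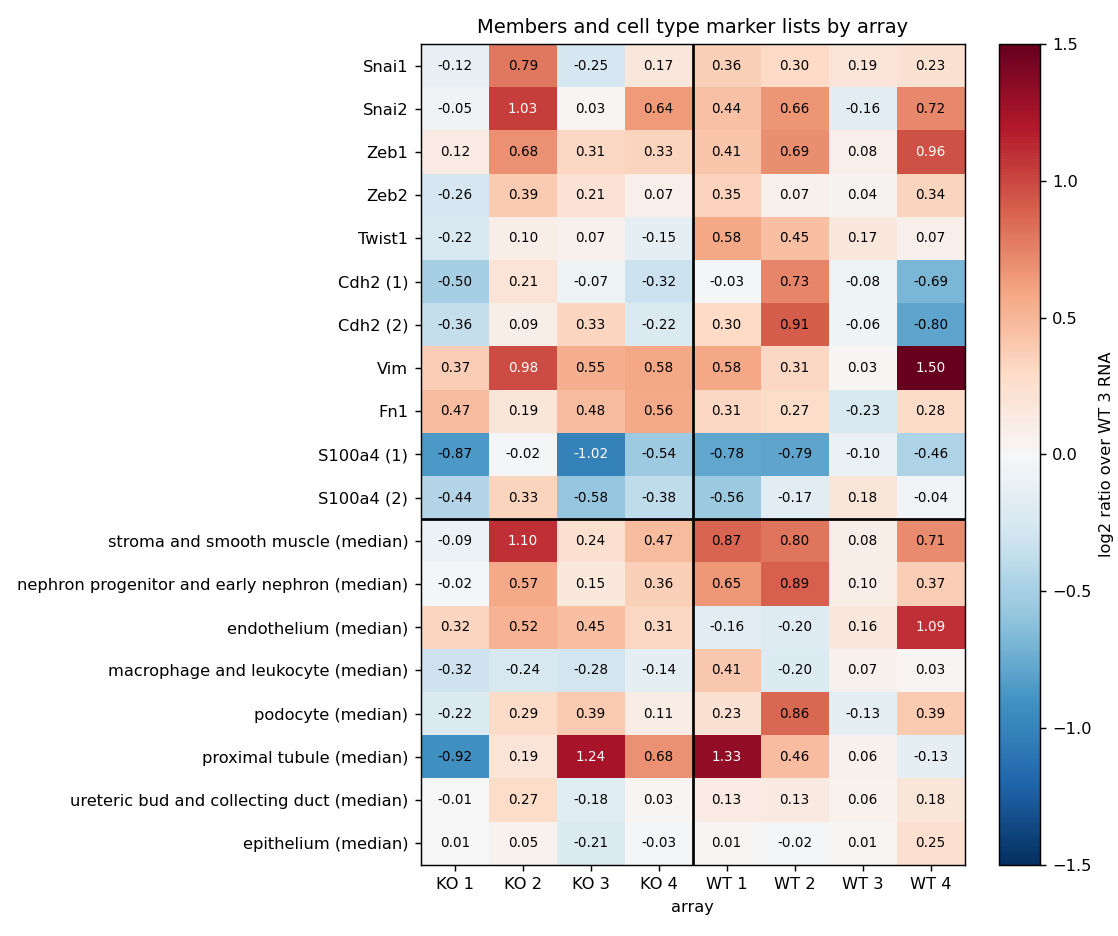
Each cell gives a log2 ratio over WT 3 RNA on 1 array, KO arrays left and WT arrays right of the vertical line, for the member probes above the horizontal line and for the median of each cell type marker list below it. Red is higher and blue lower. KO 2 and WT 4 are red at most of the Snail, ZEB and Vim rows and at the stroma row. At the stroma row WT 1 and WT 2 are redder than WT 4. The ureteric bud and epithelium rows stay pale.

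The nearest profiles over the 8 arrays were named as a description, from 13361 other genes with complete values and for the brightest probe of each member. Snai1 was followed most closely by Bag2 (Pearson r = 0.97) and Kctd11 (r = 0.956). Snai2 had Fbln5, the gene of a secreted elastic fibre protein (r = 0.961), and Gria4 (r = 0.953), and Zeb1 had Men1 (r = 0.965) and Sec23ip (r = 0.955). The nearest to Zeb2 were Csf2rb, a cytokine receptor subunit of blood cells (r = 0.934), and Gatad1 (r = 0.926), and those to Twist1 were Slc35d1 (r = 0.967) and Dennd1b (r = 0.957). Vim had Kctd12b (r = 0.977) and Mlkl (r = 0.968), and Cdh2 had Pgbd5 (r = 0.931) and Serpina6 (r = 0.912). Fn1 had Fxr1 (r = 0.95) and Marchf8 (r = 0.945), and S100a4 had Tapbp (r = 0.965) and Olfr362 (r = 0.946). All arrays share the WT 3 reference, and the best of so many genes over so few arrays is high by selection, so no p is given. No member was among the 2 nearest genes of another.

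Other regulators and partners of the transition were read from a list of 16 genes, 13 of which were tested, and 0 were higher and 0 lower at the threshold. Of the 13, 9 had differences below 0 with a median of -0.22, beside 57.1% below 0 and a median of -0.04 over all 15113 genes tested by their brightest probe. Its 4 brightest genes were mixed. Tcf4, a partner of Twist proteins, had 0.16, 0.21, 0.06 and -0.33 on KO 1 to KO 4, against 0.43, 0.62, 0.39 and 0.52 on WT 1 to WT 4, with every KO array below every WT array. The difference was -0.47 (SE 0.13, limma adjusted p = 0.11), and -0.53 without KO 2, where it passed (limma adjusted p = 0.0194). Yap1, a transcriptional co-activator of the Hippo pathway, differed by 0.26 (SE 0.14, limma adjusted p = 0.288), and Id2, an inhibitor of helix-loop-helix factors, by 0.26 (SE 0.12, limma adjusted p = 0.206), while Id1 differed by -0.0041 (SE 0.18). KO and WT did not overlap for 3 of the 13, all lower in KO, beside 11.4% of all probes in either direction and 7.82% lower. These were Tcf4, Tcf3 and Hmga2, the last 2 named after their values were seen. Tcf3, whose product E2A also pairs with Twist1, differed by -0.53 (SE 0.14, limma adjusted p = 0.108). Without KO 2, where 21.7% of all probes passed, 1 of the 12 genes tested then was higher and 3 were lower. The Yap1 difference was 0.39 there (limma adjusted p = 0.0251).

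Other mesenchymal targets numbered 22 on the list and 21 in the test, Mmp9 never being well above background, and 0 were higher and 0 lower at the threshold. Differences were below 0 for 16 of 21 with a median of -0.23. Of its 4 brightest genes, Col1a2 differed by -0.58, as given for stroma above, and Sparc, a matrix protein, differed by 0.31 (SE 0.22, limma adjusted p = 0.421), Spp1, the gene of osteopontin, by 0.28 (SE 0.32) and Ncam1, a neural cell adhesion molecule, by 0.27 (SE 0.14, limma adjusted p = 0.254). Of this list, 5 genes are also stroma markers. KO and WT did not overlap for 1 of the 21, beside 11.0% of all genes tested by their brightest probe. That gene was Edn1, which encodes endothelin and was named after its values were seen. Edn1 averaged 0.81 ± 0.21 in KO and 0.11 ± 0.17 in WT (SD, n = 4 each), a difference of 0.71 (SE 0.13, limma adjusted p = 0.0985) that reached a limma adjusted p of 0.00884 without KO 2. Without KO 2, 1 gene was higher and 3 were lower, of the 20 tested then, which is near the 21.7% of all probes that passed on those arrays.

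Epithelial genes that the transition represses were all tested, 22 of 22, and 0 were higher and 0 lower at the threshold. Differences were above 0 for 16 and below 0 for 6, with a median of 0.12. With median centring 20 of 22 lay below 0 at a median of -0.24, and 7 of 22 below the median of all probes, which that setting puts at -0.28. Cdh1, the gene of E-cadherin and a direct target of Snail and ZEB proteins, had -0.32, -0.41, -0.23 and -0.11 on KO 1 to KO 4, against -0.34, -0.70, -0.44 and -0.44 on WT 1 to WT 4. The groups overlapped, and the difference was 0.21 (SE 0.11, limma adjusted p = 0.255). Krt18, a keratin of simple epithelia, had 0.33, 0.55, 0.88 and 0.69 on KO 1 to KO 4, against 0.20, -0.36, -0.64 and 0.11 on WT 1 to WT 4. Every KO array was above every WT array, with a difference of 0.79 (SE 0.19, limma adjusted p = 0.108) that was 0.81 without KO 2 and passed there (limma adjusted p = 0.028). Its partner Krt8 differed by 0.30 (SE 0.21), Krt19 by 0.47 (SE 0.39) and Cldn7, a claudin of tight junctions, by -0.09 (SE 0.084). Cldn3, another claudin, had -0.38, -0.41, -0.68 and -0.72 on KO 1 to KO 4, against -0.23, -0.16, -0.01 and -0.15 on WT 1 to WT 4, with no overlap (difference -0.41, SE 0.11, limma adjusted p = 0.108). Krt18 and Cldn3 thus lay on opposite sides of WT. KO and WT did not overlap for 4 of 22, beside 11.0% of all genes tested by their brightest probe. Besides Krt18 and Cldn3 these were Ctnnd1, the gene of p120 catenin, higher in KO by 0.26 (SE 0.087), and Crb3, a polarity gene, lower with -0.51 (SE 0.13). Both Ctnnd1 and Crb3 were named after their values were seen. Without KO 2, 4 genes of the list were higher and 2 lower, 6 of 22 beside 21.7% of all probes.

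Factors that hold the epithelial state, such as the grainyhead factor Grhl2 and the membrane proteases Prss8 and St14, were tested for 14 of 16 genes, with 0 higher and 0 lower. Grhl2 differed by -0.09 (SE 0.12), Prss8 by -0.02 (SE 0.11), Rab25, a GTPase of recycling endosomes, by -0.22 (SE 0.18) and St14 by -0.24 (SE 0.09, limma adjusted p = 0.159). Of the 14, 8 lay below 0 with a median of -0.03. Without KO 2, 1 of the 12 tested then was higher and 0 were lower, beside 21.7% of all probes past the threshold. The higher gene was Ovol2, a zinc finger repressor of the transition named after its values were seen. Ovol2 differed by 0.73 there (limma adjusted p = 0.0411), against 0.54 (SE 0.24, limma adjusted p = 0.213) on all arrays. For TGF-beta ligands, receptors and SMAD proteins, the pathway best known to start the transition, 13 of 13 were tested, 0 were higher and 0 lower, and 9 lay above 0 with a median of 0.06. Smad3 differed by -0.03 (SE 0.089), Smad4 by 0.0087 (SE 0.085) and the receptor Tgfbr2 by 0.04 (SE 0.15), while the secreted target Tgfbi differed by -0.44 (SE 0.46) with KO values of 0.17 to 1.56 and WT values of 0.07 to 2.05. Without KO 2, 0 of 13 were higher and 1 was lower, beside the same 21.7% of all probes. The lower gene was Tgfb1, a ligand gene named after its values were seen. Tgfb1 differed by -0.86 there (limma adjusted p = 0.0269), against -0.62 (SE 0.28, limma adjusted p = 0.213) on all arrays.

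**Figure D4:**
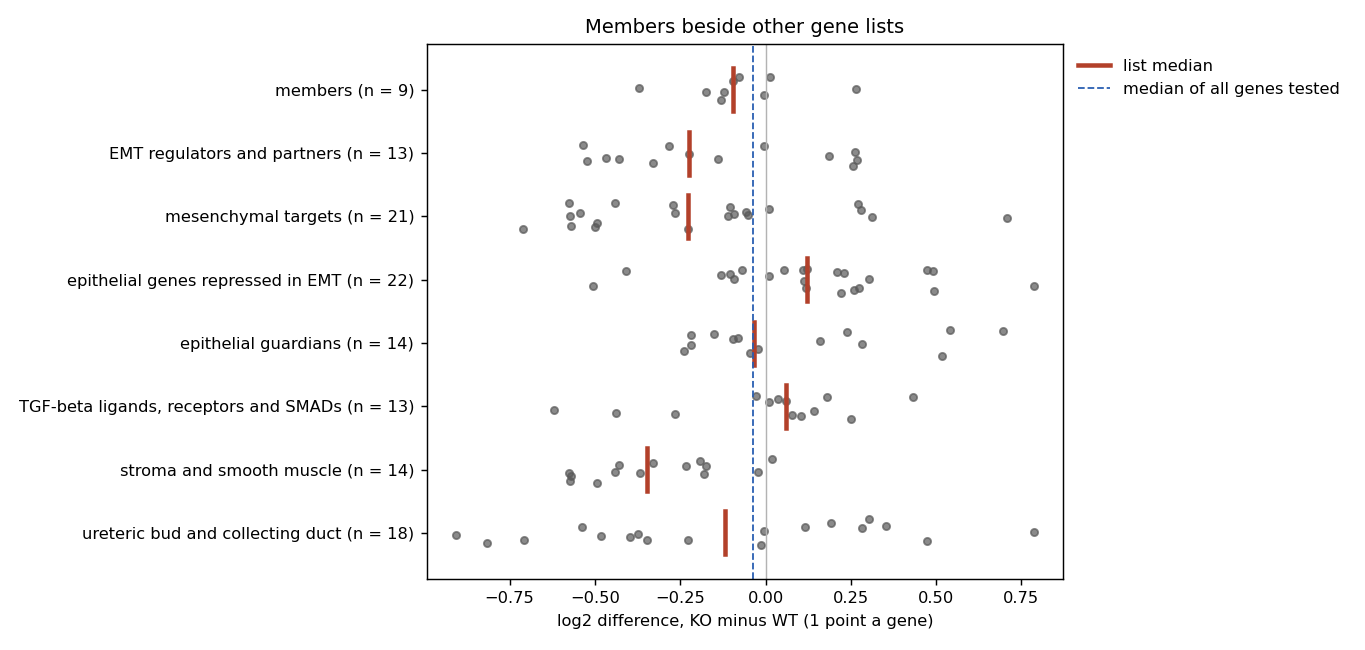
Each point is 1 gene at its log2 difference, KO minus WT (x axis), for the members and 7 other gene lists (rows, with the number tested); red bars are list medians, and the dashed line is the median of all genes tested, -0.04. The lists shown are the 5 pathway lists and the stroma and ureteric bud markers; points of every list shown lie on both sides of 0, and the medians run from -0.35 for stroma and smooth muscle to 0.12 for epithelial genes.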

How the data were processed

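Gene expression was read on 8 Agilent 2-colour mouse arrays, 4 KO and 4 WT, with WT 3 RNA as the Cy3 channel of each and no dye swap. The authors deposited scanner files with intensity values of each spot in both colours. The scanner software was Agilent Feature Extraction, release 10.7.3.1 by the submitters' processing notes, and the annotation is that of mm9 per the file headers. Those files also give log10 ratios of Cy5 over Cy3, which the authors' software corrected for background and dye per the file headers. The deposited value table, also log10, differed from these ratios by at most 0.00496, with a column median of 0.0152 on KO 3 and 0 elsewhere, and was left uncentred.

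Median intensities and median local backgrounds were corrected with normexp (offset 50) and turned into log2 ratios by loess within arrays, with no weight on control spots. This used limma 3.58.1 with R 4.3.3, data.table (version 1.17.8) and jsonlite 2.0.0. Flagged spots were dropped and spots of a probe averaged. Tested probes had Cy5 well above background on 4 or more of the 8 arrays and unflagged values on 3 or more per group. KO minus WT was fitted per probe by limma (lmFit, eBayes), with 2-sided p-values adjusted by Benjamini-Hochberg over 31667 probes and a threshold of 0.05. Gene lists used the brightest tested probe of each gene. The procedure was tested on simulated data. Of 37850 systematic names 21717 were found in the GRCm38.p6 RefSeq genes. Figures used matplotlib 3.10.9.

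The members and the gene lists were chosen with earlier results of these data known. Named are all members with every probe, the genes past the threshold and the 4 brightest of each list, and the 2 nearest profiles of each member; other genes are said to be named after their values were seen. For 1 gene that this rule takes, the value is not reported here. The samples are called biological replicates, with animals and litters not given, so the spread behind the p-values is that between these samples. Alternatives were another offset, no background subtraction, the scanner's ratio, the value table, median centring, scaling, Cy5 alone, other filters, variance models and probe summaries, a replicate block and arrays left out. The number of arrays limits the precision.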

Additional observations from a re-analysis of the deposited data

Results flagged for a closer look

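Fn1 on the array of WT 3, at -0.23, lay far below the other WT arrays, the nearest of which was at 0.27. The gap was 0.939 of the group's whole range. This was 1 of 22 groups of 4 arrays examined, and chance flags about 1 in 20. The array of WT 3 is the hybridisation of that RNA with itself.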

How the results depend on the processing

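The number of member probes past the threshold was 0 under each of 22 alternatives and 1, Twist1 at -0.51, without KO 2 and KO 3. Of 251 alternative values of the 11 member differences, 225 kept direction and side of the threshold, 25 changed sign with none past the threshold, and that of Twist1 passed. All probes past the threshold numbered 2, and 1 with a normexp offset of 0, 1 with no background subtraction, 5 with the scanner's log ratio, 5 with the deposited value table, 0 with median centring, 6 with scaling between arrays, 0 with Cy5 alone, 4 with no filter, 13 with an intensity trend and robust hyperparameters, 5087 with array weights, 1 with the mean over probes and 7436 without KO 2 and KO 3. They ranged from 1 to 6193 when 1 array was left out, with 6193 without KO 2, 8 without KO 3, 4 without WT 3 and 1 without KO 4, WT 1, WT 2 or WT 4. With the replicate number as a block, 0 probes and 0 members passed; same-numbered arrays had correlations of deviations from -0.21 to 0.106, and 0 of 4 KO arrays correlated best with their own number. Sign changes were found for Snai2 with offset 0 (0.011), with no background subtraction (0.0085) and with Cy5 alone (0.10), for the second Cdh2 probe with Cy5 alone (0.14), for Vim with median centring (-0.43), scaling (-0.064), array weights (-0.033) and without KO 2 and KO 3 (-0.13), for Fn1 with median centring (-0.24) and for the first S100a4 probe with scaling (0.038). Median centring moved the median of all probes to -0.28 and Cy5 alone to -0.18, relative to which Vim stood at -0.16 and Fn1 at 0.04 under median centring. With 1 array left out, Snai1 ranged from -0.34 to 0.010, Snai2 from -0.21 to 0.15, Zeb2 from -0.19 to 0.026, Cdh2 from -0.38 to 0.096 and from -0.42 to 0.14, Vim from -0.18 to 0.31, and the first S100a4 probe from -0.28 to 0.066. Zeb1 (-0.33 to -0.035), Twist1 (-0.45 to -0.28), Fn1 (0.13 to 0.34) and the second S100a4 probe (-0.32 to -0.014) kept their sign. The cause was not tested.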
